A study of Mus musculus with 21 samples.

Results

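Expression of 9 genes of the retinoic acid pathway was followed through hematopoietic differentiation of mouse pluripotent stem cells. The genes were Stra6, Crabp1, Crabp2, Dhrs3, Aldh1a2, Cyp26a1, Rara, Rarb and Rarg, and they were found by symbol among 27968 genes listed for sorted cells and 22899 genes listed for coculture cells. All 9 had values in both sets. RNA-seq was available from 21 libraries, 3 replicates in each of 7 groups. Of these, 6 libraries came from total cells on day 5 of the second stage, in which colonies from a 3D peptide hydrogel were reseeded either on OP9 stromal cells over gelatin (3D+OP9) or on 0.1% gelatin alone (3D+0.1% gelatin). The other 15 came from mouse embryonic stem cells (mESCs), from D5-LSKCD201+ and D5-LSKCD201- cells sorted on day 5, and from FL-LSKCD201+ and BM-LSKCD201+ cells. LSK denotes cells without lineage markers that carry Sca-1 and c-kit, and CD201 is the endothelial protein C receptor encoded by Procr.

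Per the labels, the mESCs and every group derived from them had the 129/ola background, although the methods of the study also name C57BL/6 as a source of embryonic stem cells. FL-LSKCD201+ cells came from C57BL/6 fetal liver at E12.5, and BM-LSKCD201+ cells from bone marrow of C57BL/6 mice aged 6 to 8 weeks. If the labels hold, strain and source cannot be told apart in any comparison of the day 5 cells with the fetal liver or bone marrow cells. The coculture medium held SCF, IL-3 and Flt3 ligand. OP9 is a mouse bone marrow stromal line, was treated with mitomycin C, and may have left RNA in the 3D+OP9 total cells. The mESCs were grown on inactivated embryonic fibroblasts. The labels do not say whether replicates came from separate cultures or animals, so the p-values measure the spread between these libraries.

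Retinoic acid is made from vitamin A in steps. Retinol enters the cell through the receptor STRA6, is oxidised to retinal, and is then oxidised to retinoic acid by retinaldehyde dehydrogenases such as ALDH1A2, while DHRS3 turns retinal back into retinol. CRABP1 and CRABP2 bind retinoic acid in the cytoplasm, CYP26A1 breaks it down, and the nuclear receptors RARA, RARB and RARG, paired with an RXR, bind DNA and switch target genes when it is present. Cyp26a1, Rarb, Dhrs3 and Stra6 are themselves known targets. In the embryo the pathway patterns the body axis and acts in hemogenic endothelium, and in adult bone marrow it is known for its part in stem cell dormancy.

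The sort was visible in the data. Procr was 59.7 FPKM in D5-LSKCD201+ cells and 3.48 FPKM in D5-LSKCD201- cells, where FPKM is the fragment count scaled by transcript length and library size. Ptprc, the pan-leukocyte antigen CD45, was 0.409 FPKM in D5-LSKCD201+ and 0.633 FPKM in D5-LSKCD201- cells against 43.5 FPKM in FL-LSKCD201+ and 66.8 FPKM in BM-LSKCD201+ cells. Over all 7 leukocyte markers the sum was 47.5 to 51.3 FPKM in D5-LSKCD201+ and 25.7 to 27.0 FPKM in D5-LSKCD201- cells, with Spi1 (1.02 ± 0.09), Laptm5 (1.06 ± 0.16) and Itgb2 (1.02 ± 0.13) higher in the former. Vav1 (1.35 FPKM in both) and Cd48 (0.0495 and 0.0583 FPKM) were not higher there. The same sum was 23.1 to 25.2 FPKM in mESCs, 1310 to 1550 FPKM in FL-LSKCD201+ and 1610 to 1840 FPKM in BM-LSKCD201+ cells. A sum over 7 endothelial markers was 1470 to 1490 FPKM in D5-LSKCD201+ cells and 65.0 to 73.0 FPKM in D5-LSKCD201- cells, while a sum over 7 pluripotency markers was 22.7 to 30.4 FPKM and 3480 to 3910 FPKM in the same groups. All 7 pluripotency markers had a mean of at least 1 FPKM in D5-LSKCD201- cells. A sum over 10 stromal markers was 109 to 112 FPKM in D5-LSKCD201+ and 40.5 to 74.9 FPKM in D5-LSKCD201- cells. Pdgfra (0.676 and 2.61 FPKM) and Pdgfrb of that list had lower means in D5-LSKCD201+ cells. A sum over 7 neuroectoderm markers was 12.4 to 14.0 and 30.4 to 32.5 FPKM in the same groups. In each group 2 of these 7 reached a mean of 1 FPKM, and they went opposite ways. Tubb3 was 7.5 and 27.4 FPKM, and Nes was 5.43 and 1.65 FPKM. The part of these cell types in the differences given here was not tested. In 4 groups 1 library stood apart while the other pair lay close together: replicate 3 of 3D+OP9, replicate 2 of D5-LSKCD201-, replicate 1 of FL-LSKCD201+ and replicate 1 of BM-LSKCD201+.

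The 9 genes fell into 3 patterns in the sorted cells. Stra6, Crabp2, Aldh1a2 and Cyp26a1 were highest in D5-LSKCD201- cells and had means under 1 FPKM in fetal liver and bone marrow cells. Crabp1, Rara and Rarg were highest in mESCs, where the Crabp1 libraries overlapped with those of D5-LSKCD201- cells. Dhrs3 and Rarb were highest in BM-LSKCD201+ cells. Because these are bulk libraries, fewer expressing cells and less RNA per cell cannot be told apart in any of these differences.

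**Figure D1:**
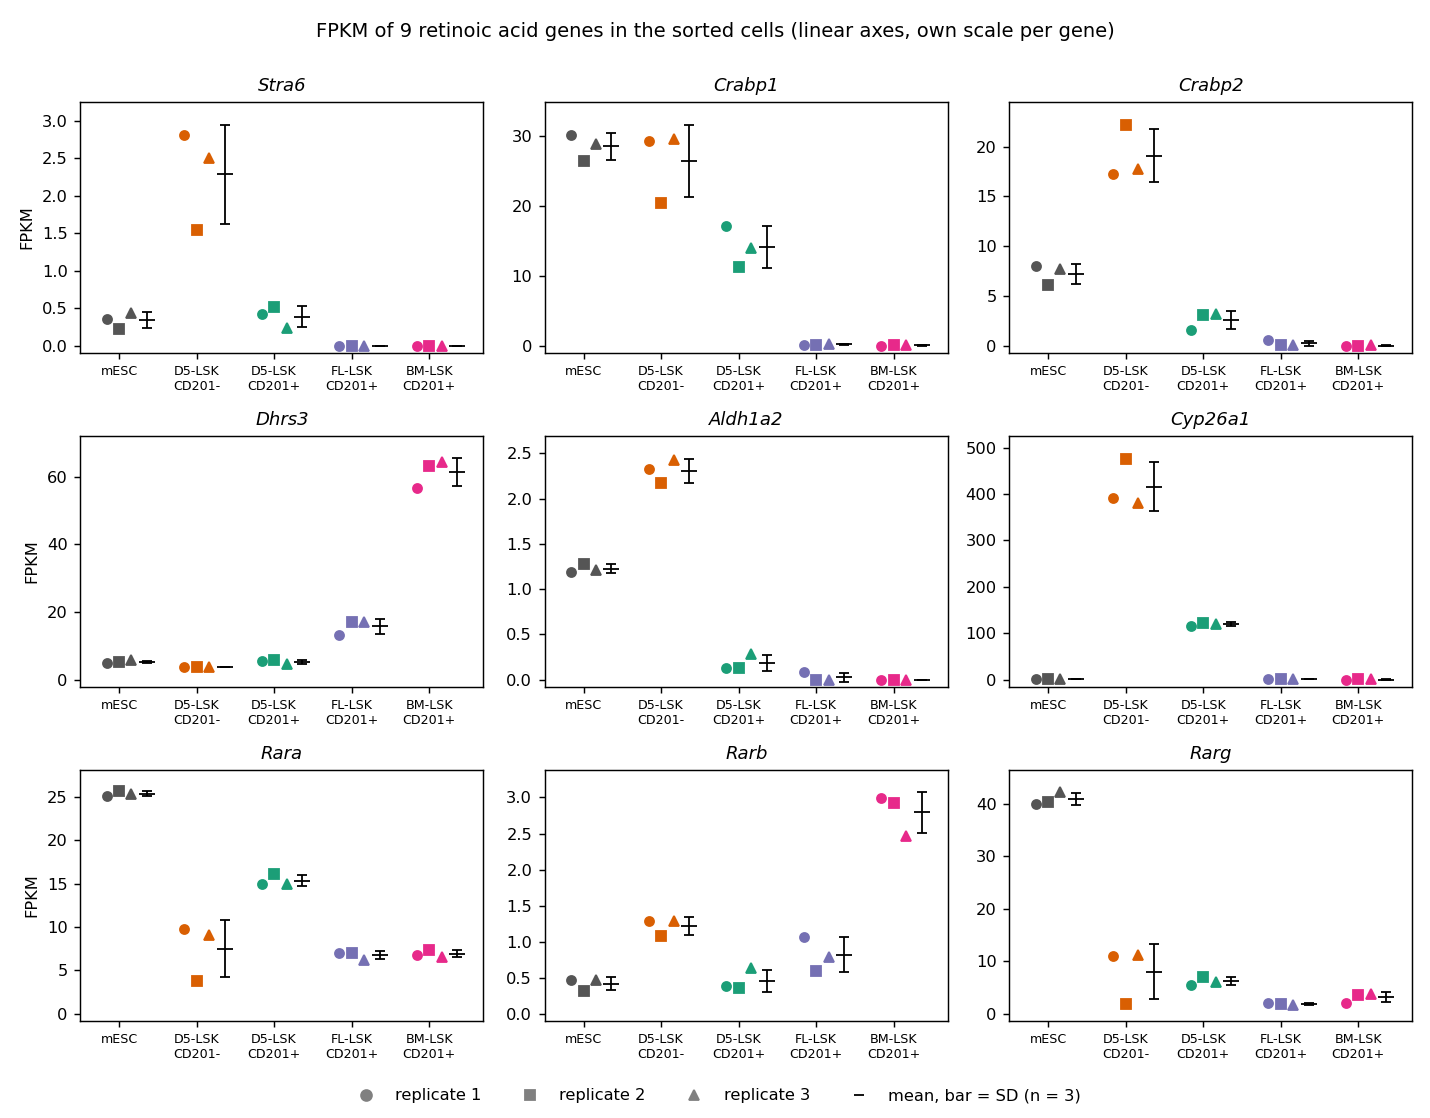
FPKM of the 9 genes (vertical axis, linear, with its own scale per gene) in the 15 sorted-cell libraries by group (horizontal axis). Points are libraries with a symbol per replicate, and the dash with its bar is the mean with SD (n = 3). Cyp26a1 was between 380 and 476 FPKM in D5-LSKCD201- cells, between 115 and 123 FPKM in D5-LSKCD201+ cells and under 1 FPKM in the other groups.

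Cyp26a1, the gene of the retinoic acid hydroxylase, showed the widest range. It lies on the plus strand of chromosome 19 (GRCm38 chr19:37697798-37701536). In the 3 mESC libraries it was 0.489, 0.909 and 0.889 FPKM, in D5-LSKCD201- cells 392, 476 and 380 FPKM, and in D5-LSKCD201+ cells 115, 123 and 120 FPKM. None of these 3 groups overlapped. In FL-LSKCD201+ cells it was 0.679, 0.562 and 0.557 FPKM, and in BM-LSKCD201+ cells it was listed at 0 in replicate 1 and was 0.397 and 0.629 FPKM in the others. The mESC, fetal liver and bone marrow libraries overlapped with each other. The mean in D5-LSKCD201- cells was 416 ± 52.5 FPKM (SD, n = 3), which was 546 times the mESC mean and 3.48 times the D5-LSKCD201+ mean of 119 ± 4.19 FPKM. On the log2(FPKM + 1) scale Cyp26a1 in D5-LSKCD201+ cells lay below D5-LSKCD201- cells by -1.78 ± 0.09 (SE, limma, adjusted p = 3.12e-06), and higher in D5-LSKCD201+ cells than in mESCs by 6.10 ± 0.10 (adjusted p = 6.57e-11).

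The promoters were searched for retinoic acid response elements, because known targets of the receptors are among the 9 genes. A half-site was AGGTCA, which is the consensus, or else AGTTCA, and the forms GGGTCA as well as GGTTCA were taken too. A DR5 was a direct repeat of any pair of these with 5 bases between them, on either strand. Promoter windows of RefSeq (GRCm38.p6), 250 bases before to 50 bases after a start, were at hand for 8 of the 9 genes, in 17 windows, with none for Crabp2. A DR5 was found in the windows of 2 genes, Cyp26a1 and Rarb, and in 32 of all 32851 windows of the same length (0.0974%). None was found in the windows at hand for 24 of 35 other pathway genes. Repeats with a spacing of 2 (DR2) or 1 (DR1) were searched too. The windows of the 9 genes held neither, and Bco1 of the other genes held a DR1. A single half-site was found in 43.7% of all windows. The DR5 of Cyp26a1 lay at chr19:37697776-37697792, from 32 to 16 bases before the RefSeq start on the strand opposite to the gene, and that of Rarb at chr14:16575513-16575529, from 53 to 37 bases before the start on the strand of the gene. Both repeats are shown with their half-sites in capitals, read 5′ to 3′ on the strand that carries the motif.
Cyp26a1 repeat: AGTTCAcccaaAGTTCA
Rarb repeat: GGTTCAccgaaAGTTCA

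The 120 bases before the RefSeq start of both windows follow, read 5′ to 3′ on the strand of the gene, with the same half-sites in capitals. The RefSeq start of the Rarb window lies inside the span that GENCODE gives for the gene. The Cyp26a1 stretch is chr19:37697688-37697807 on the plus strand, and the Rarb stretch is chr14:16575477-16575596 on the minus strand. The stretch before Dhrs3 (chr4:144892707-144892826, plus strand) is shown because Dhrs3, a known target too, was highest in BM-LSKCD201+ cells like Rarb, and it held no DR5. A match describes letters in the sequence, and a window without a match holds no more than the absence of these letters.
Cyp26a1 promoter: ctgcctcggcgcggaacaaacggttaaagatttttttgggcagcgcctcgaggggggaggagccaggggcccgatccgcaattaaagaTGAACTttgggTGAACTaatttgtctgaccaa
Rarb promoter: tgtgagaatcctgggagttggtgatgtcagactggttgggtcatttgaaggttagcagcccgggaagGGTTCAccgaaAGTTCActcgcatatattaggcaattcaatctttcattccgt
Dhrs3 promoter: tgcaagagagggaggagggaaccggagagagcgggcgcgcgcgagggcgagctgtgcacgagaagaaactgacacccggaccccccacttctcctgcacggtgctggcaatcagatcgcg

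Stra6, the retinol receptor of the cell surface, was low in all groups. The gene lies on chromosome 9 (chr9:58063788-58153996, plus strand). It was 2.81, 1.54 and 2.50 FPKM in D5-LSKCD201- cells, 0.417, 0.512 and 0.237 FPKM in D5-LSKCD201+ cells and 0.360, 0.228 and 0.441 FPKM in mESCs. It was listed at 0 in all 6 fetal liver and bone marrow libraries. The D5-LSKCD201- libraries stood above all others, and the D5-LSKCD201+ and mESC libraries overlapped. Stra6 in D5-LSKCD201+ cells lay below D5-LSKCD201- cells by -1.23 ± 0.17 (limma, adjusted p = 0.000491), and by -0.95 after quantile normalization, which falls under the fold threshold. Stra6 passed the filter for testing (a mean of 0.5 FPKM over the libraries compared) through its D5-LSKCD201- level alone, which fixed this direction.

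Crabp2, whose product carries retinoic acid to its receptors, was 17.3, 22.2 and 17.8 FPKM in D5-LSKCD201- cells, 7.99, 6.11 and 7.66 FPKM in mESCs and 1.55, 3.06 and 3.20 FPKM in D5-LSKCD201+ cells. It lies at chr3:87948666-87953376 on the plus strand. In fetal liver cells it was 0.541 FPKM in replicate 1 and 0.0670 and 0.0582 FPKM in the others, and in bone marrow cells it was 0.0555 FPKM in replicate 3 and listed at 0 in the others. No neighbouring groups in this order overlapped. The mean of D5-LSKCD201- cells was 7.34 times that of D5-LSKCD201+ cells, a log2 difference of -2.51 ± 0.21 for D5-LSKCD201+ against D5-LSKCD201- cells (limma, adjusted p = 3.66e-05).

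Crabp1, the other cytoplasmic binding protein, had another order. It lies at chr9:54764748-54773110 on the plus strand. It was 30.1, 26.4 and 28.8 FPKM in mESCs, 29.2, 20.4 and 29.5 FPKM in D5-LSKCD201- cells and 17.1, 11.2 and 13.9 FPKM in D5-LSKCD201+ cells. The mESC and D5-LSKCD201- libraries overlapped, and the D5-LSKCD201+ libraries lay below both. Its mean was 0.185 ± 0.0637 FPKM in FL-LSKCD201+ and 0.0875 ± 0.0758 FPKM in BM-LSKCD201+ cells. The difference of D5-LSKCD201+ from D5-LSKCD201- cells was -0.86 ± 0.19 (adjusted p = 0.00524) and missed the fold threshold. It passed at -1.03 without replicate 2 of D5-LSKCD201-, and also without replicate 1 of D5-LSKCD201+ (adjusted p = 0.00519).

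Aldh1a2 and Dhrs3, whose enzymes draw on the same retinal, had opposite orders of their group means. The D5-LSKCD201+ and mESC libraries overlapped for Dhrs3, and the fetal liver and bone marrow libraries for Aldh1a2. Aldh1a2, the main retinaldehyde dehydrogenase of the early embryo, lies at chr9:71215789-71296243 on the plus strand. It was 2.33, 2.17 and 2.43 FPKM in D5-LSKCD201- cells, 1.19, 1.28 and 1.21 FPKM in mESCs and 0.131, 0.129 and 0.285 FPKM in D5-LSKCD201+ cells. The 3 groups did not overlap. It was 0.0848 FPKM in replicate 1 of FL-LSKCD201+ and listed at 0 in the other fetal liver libraries and in all of bone marrow. D5-LSKCD201+ cells were lower than D5-LSKCD201- cells by -1.49 ± 0.09 (limma, adjusted p = 7.9e-06), and D5-LSKCD201- cells had 12.7 times the mean FPKM. Aldh1a2 passed the filter for testing (0.5 FPKM) through its D5-LSKCD201- level alone, which fixed this direction.

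Dhrs3, the retinal reductase, lies at chr4:144892827-144928209 on the plus strand. It was 56.5, 63.0 and 64.3 FPKM in BM-LSKCD201+ cells and 13.3, 17.0 and 16.9 FPKM in FL-LSKCD201+ cells. It was 5.50, 5.80 and 4.63 FPKM in D5-LSKCD201+ cells, 4.96, 5.15 and 5.67 FPKM in mESCs and 3.79, 3.72 and 3.79 FPKM in D5-LSKCD201- cells. The bone marrow libraries stood above the fetal liver libraries, and both stood above the rest, of which D5-LSKCD201+ cells and mESCs overlapped. The BM-LSKCD201+ mean was 61.3 ± 4.15 FPKM, 3.9 times that of FL-LSKCD201+ and 11.5 times that of D5-LSKCD201+ cells. D5-LSKCD201+ cells were lower than BM-LSKCD201+ cells by -3.31 ± 0.09 (limma, adjusted p = 3.89e-08) and lower than FL-LSKCD201+ cells by -1.40 ± 0.13 (adjusted p = 5.77e-05).

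Among the receptors, Rara (chr11:98927818-98974942, plus strand) was 25.1, 25.7 and 25.4 FPKM in mESCs and 15, 16.1 and 15 FPKM in D5-LSKCD201+ cells. In D5-LSKCD201- cells it was 9.73, 3.78 and 9.04 FPKM, with replicate 2 far below the others. The means of FL-LSKCD201+ and BM-LSKCD201+ cells were 6.73 ± 0.459 and 6.91 ± 0.413 FPKM, and they overlapped with each other and with the D5-LSKCD201- libraries. Rara was higher in D5-LSKCD201+ than in D5-LSKCD201- cells by 1.03 ± 0.29 (limma, adjusted p = 0.0165). Without replicate 2 of D5-LSKCD201- the difference was 0.66 (adjusted p = 5.18e-05), under the fold threshold, and the call was also lost without replicate 2 of D5-LSKCD201+ (adjusted p = 0.0532) and with no filter on low values (adjusted p = 0.0789).

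Rarg (chr15:102234938-102257517, minus strand), the receptor known from the early embryo, was 40.0, 40.4 and 42.2 FPKM in mESCs, above all other libraries. It was 10.9, 1.90 and 11.1 FPKM in D5-LSKCD201- cells and 5.50, 7.03 and 6.07 FPKM in D5-LSKCD201+ cells. Replicate 2 of D5-LSKCD201- lay below all D5-LSKCD201+ libraries and the other 2 replicates lay above them. Between these groups the difference was -0.06 ± 0.53 (adjusted p = 0.928), and without that replicate it was -0.74 (adjusted p = 0.000291). The means of BM-LSKCD201+ and FL-LSKCD201+ cells were 3.18 ± 0.943 and 1.82 ± 0.184 FPKM.

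Rarb (chr14:16430839-16819156, minus strand), the receptor gene that retinoic acid itself induces, was 2.99, 2.93 and 2.47 FPKM in BM-LSKCD201+ cells and 1.07, 0.591 and 0.791 FPKM in FL-LSKCD201+ cells. It was 1.28, 1.08 and 1.29 FPKM in D5-LSKCD201- cells, 0.385, 0.350 and 0.630 FPKM in D5-LSKCD201+ cells and 0.468, 0.309 and 0.460 FPKM in mESCs. The bone marrow libraries lay above all others. D5-LSKCD201- cells lay above FL-LSKCD201+ cells, by a narrow gap, while the fetal liver, D5-LSKCD201+ and mESC neighbours overlapped. Rarb was lower in D5-LSKCD201+ than in BM-LSKCD201+ cells by -1.39 ± 0.11 (limma, adjusted p = 1.28e-05), a direction fixed by the filter, which Rarb passed through its bone marrow level alone. It was lower in FL-LSKCD201+ than in BM-LSKCD201+ cells by -1.07 ± 0.14 (adjusted p = 0.000644), a call that missed the fold threshold after quantile normalization (-0.96) and without replicate 2 of FL-LSKCD201+ (-0.98). Of the 5265 exonic bases of Rarb, 1793 (34.1%) are shared with Top2b on the opposite strand, and the strand setting of the counting is not given in the sources used here, so that reads of both genes cannot be told apart there. Top2b was 25.1 FPKM in BM-LSKCD201+, 24.3 in FL-LSKCD201+, 20.6 in D5-LSKCD201+, 12.5 in mESC and 10.2 in D5-LSKCD201- libraries. The order of BM-LSKCD201+, FL-LSKCD201+, D5-LSKCD201+ and mESC libraries was the same for the means of both genes, and D5-LSKCD201- cells were lowest for Top2b and second for Rarb. The part of Top2b reads in the Rarb values was not tested.

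The makeup of the receptor transcripts differed with the cell source. Of the FPKM summed over Rara, Rarb and Rarg, a quantity scaled by length, Rarg made up 61.3% ± 0.649 (SD, n = 3) in mESCs and Rara 38.1% ± 0.724. Rara made up 69.9% ± 1.74 in D5-LSKCD201+ and 71.9% ± 2.62 in FL-LSKCD201+ cells. In BM-LSKCD201+ cells Rarb reached 21.8% ± 3.01, the highest share of any group. D5-LSKCD201- cells were uneven, with Rarg between 28.1% and 51.8%. The sum itself was 66.7 ± 1.21 FPKM in mESCs, 22.1 ± 1.32 in D5-LSKCD201+, 12.9 ± 1.0 in BM-LSKCD201+ and 9.36 ± 0.707 in FL-LSKCD201+ cells, with no overlap between these groups. In D5-LSKCD201- cells it was 6.76 FPKM in replicate 2 and 21.9 FPKM at most. In day 5 total cells Rarg made up 53.2% ± 10.9 of the sum in 3D+OP9 and 55.2% ± 5.36 on gelatin, with overlapping libraries. These shares are descriptions and were not tested.

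**Figure D2:**
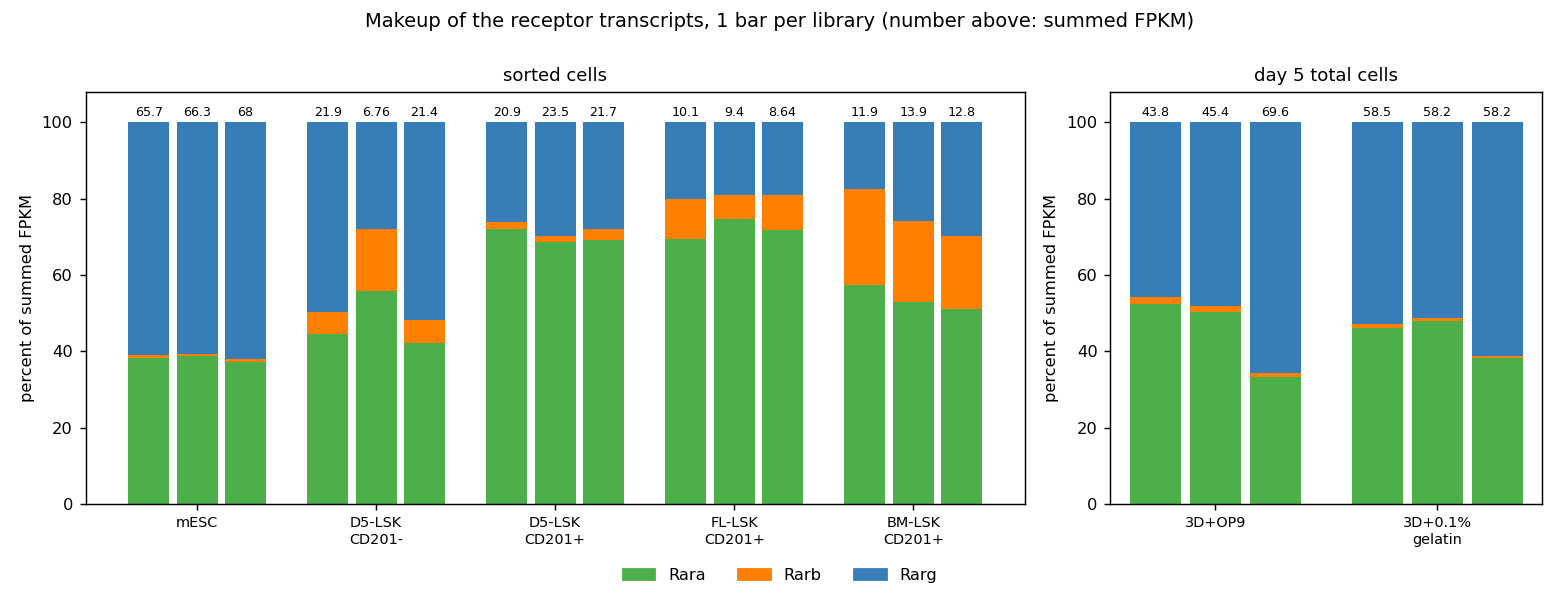
Percent of the summed FPKM of Rara, Rarb and Rarg (vertical axis) in each library, 1 bar per library in replicate order, grouped on the horizontal axis. The number above a bar is the summed FPKM of that library. Rarg held the largest part in the mESC bars and Rara in the D5-LSKCD201+, FL-LSKCD201+ and BM-LSKCD201+ bars, and the bar of D5-LSKCD201- replicate 2 (6.76 FPKM) differs from its neighbours.

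D5-LSKCD201+ cells were compared with D5-LSKCD201- cells to describe what sets the CD201+ fraction apart. A gene counted as changed with an adjusted p under 0.05 in limma, over all genes tested, and a log2 difference of 1 or more in either direction. All 9 genes were tested. Cyp26a1, Crabp2, Aldh1a2 and Stra6 fell and Rara rose, and the other 4 did not pass both thresholds. Aldh1a2, Stra6 and Rarb had means under 0.5 FPKM in D5-LSKCD201+ cells and were tested through their D5-LSKCD201- levels alone, so that the count is a description. Of all 13691 genes tested, 24.7% passed (13.9% lower and 10.8% higher). Of those that passed 43.7% were higher, and 51.8% after quantile normalization. The median log2 difference was -0.86 over the 9 genes and -0.12 over all genes tested. Of the 4 that did not pass, Rarb was at -0.61 ± 0.10 (adjusted p = 0.00142) and Dhrs3 at 0.40 ± 0.10 (adjusted p = 0.0107). The libraries of the groups did not overlap for 8 of the 9 genes, all but Rarg, against 73.6% of all genes tested. Rarb passed at -1.28 with a pseudocount of 0.1. Without replicate 2 of D5-LSKCD201-, the 4 falls remained at -1.68 (Cyp26a1), -2.40 (Crabp2), -1.52 (Aldh1a2) and -1.40 (Stra6), Crabp1 joined them, and Rara no longer passed.

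Both day 5 fractions were set against mESCs, the cells they came from. The pluripotency sum was 6300 to 6840 FPKM in mESCs and 3480 to 3910 FPKM in D5-LSKCD201- cells, and the endothelial sum 21.3 to 23.0 and 65.0 to 73.0 FPKM. Dppa5a made up most of the pluripotency sum (4800 and 2800 FPKM). Nanog was level (73.9 and 74.1 FPKM), and all other members of that list had lower means in D5-LSKCD201- cells. The stromal sum was 8.1 to 9.32 FPKM in mESCs, 40.5 to 74.9 FPKM in D5-LSKCD201- and 109 to 112 FPKM in D5-LSKCD201+ cells. The part of these cell types in the differences from mESCs was not tested. In D5-LSKCD201- cells all 9 genes were tested. Cyp26a1 (7.89 ± 0.13), Crabp2 (1.28 ± 0.13) and Stra6 (1.27 ± 0.16) rose, and Rarg (-2.48 ± 0.51) and Rara (-1.72 ± 0.29) fell, with limma's adjusted p from 1.28e-07 to 0.00519. Of all genes tested 14.3% passed (10.9% higher and 3.48% lower), and the median was 0.57 over the 9 genes and 0.05 over all. Of all genes past the thresholds 75.7% were higher, and 59.8% after quantile normalization, where the Stra6 difference was 0.99. Without replicate 2 of D5-LSKCD201- the Rarg difference was -1.80 and the Rara difference -1.35, and both still passed. Aldh1a2 (0.57 ± 0.09, adjusted p = 0.00141) and Rarb (0.65 ± 0.09, adjusted p = 0.000941) missed the fold threshold. Stra6 and Rarb passed the filter through their D5-LSKCD201- levels alone. The groups did not overlap for 8 of the 9 genes, against 64.4% of all genes tested.

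In D5-LSKCD201+ cells 7 of the 9 genes passed the filter on low values against mESCs, and 37.6% of all genes tested passed the thresholds (19.5% higher and 18.1% lower). Cyp26a1 rose, and Rarg (-2.54 ± 0.08, limma, adjusted p = 3.44e-09) and Crabp2 (-1.23 ± 0.19, adjusted p = 0.000228) fell. The Crabp2 difference was -0.99 without replicate 1 of D5-LSKCD201+, under the fold threshold. Rara (-0.69 ± 0.05), Crabp1 (-0.98 ± 0.13) and Aldh1a2 (-0.92 ± 0.08) lay below the mESC libraries without reaching a log2 difference of 1, and Dhrs3 was at 0.01 ± 0.09 with an interval from -0.20 to 0.21. The groups did not overlap for 6 of the 7 genes, against 86.1% of all genes tested, and Aldh1a2 among them reached the filter through its mESC level alone. Rarg and Rara were below mESCs in both day 5 fractions, while Crabp2 rose in D5-LSKCD201- cells and fell in D5-LSKCD201+ cells. Both comparisons share the mESC libraries. The sum of the 7 endothelial markers was 21.3 to 23.0 FPKM in mESCs and 1470 to 1490 FPKM in D5-LSKCD201+ cells. That of the 7 pluripotency markers was 6300 to 6840 FPKM and 22.7 to 30.4 FPKM. Their part in the differences of D5-LSKCD201+ cells from mESCs was not tested.

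**Figure D3:**
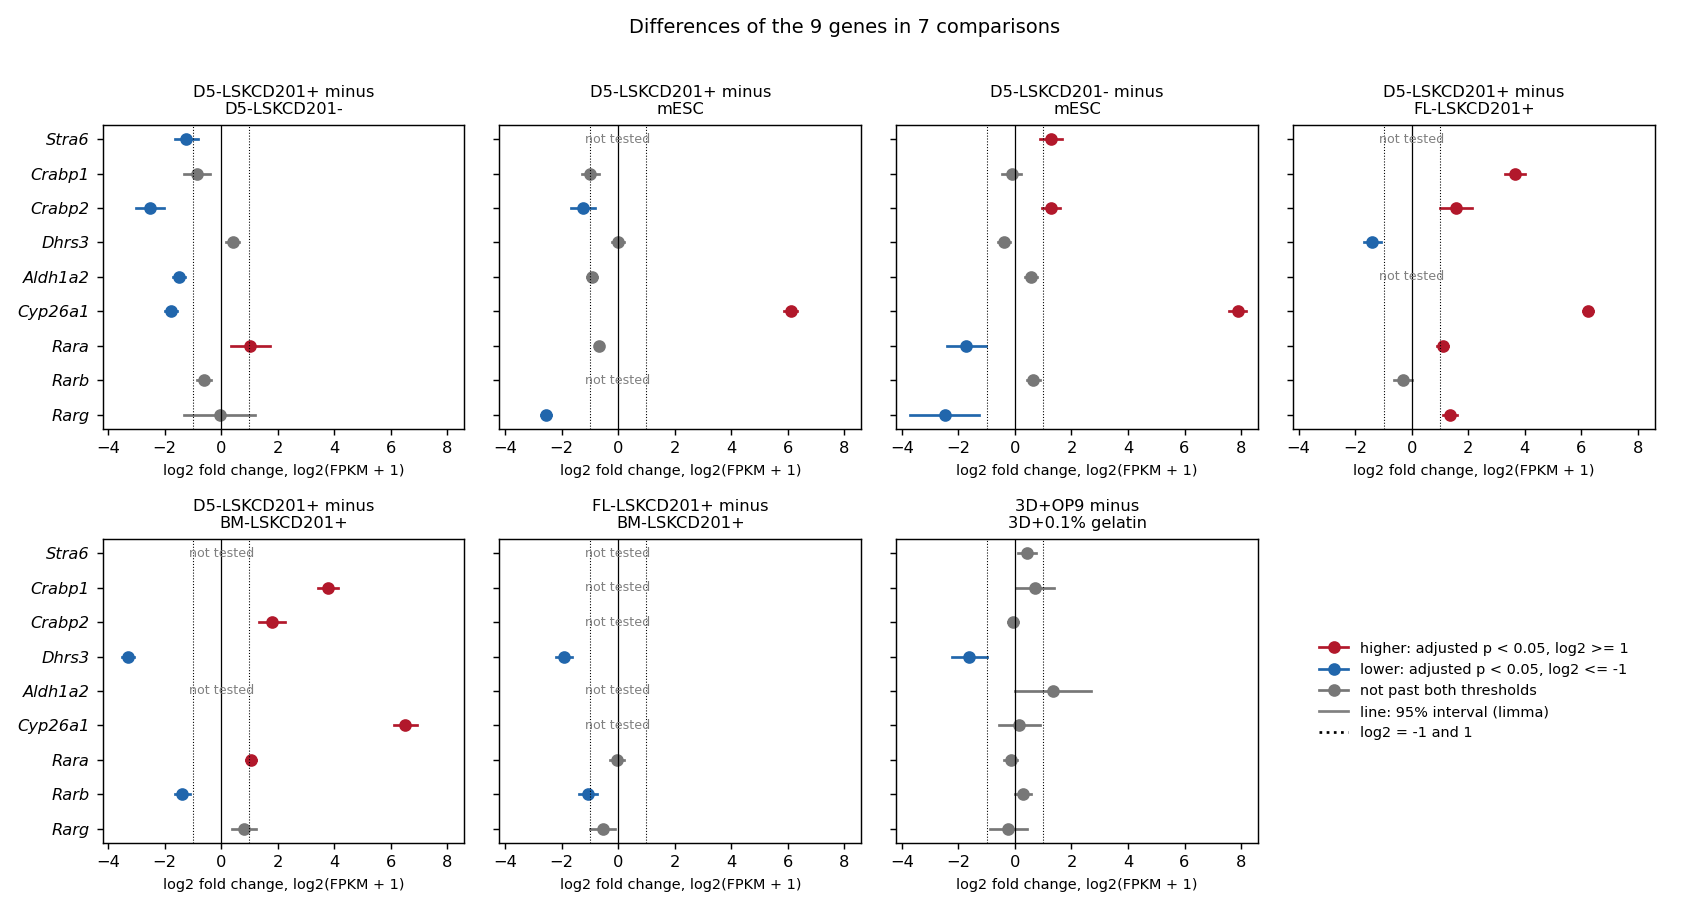
Log2 fold change on the log2(FPKM + 1) scale (horizontal axis) of each of the 9 genes (vertical axis) in 7 comparisons, as the group named in the upper line minus the group in the lower line. Dots are limma estimates, lines are 95% intervals, red and blue mark genes past both thresholds, and genes under the filter on low values are marked as not tested. Cyp26a1 lies at 6.10 against mESCs, 6.24 against FL-LSKCD201+ and 6.52 against BM-LSKCD201+ cells, and Dhrs3 lies at -3.31 against BM-LSKCD201+ cells.

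The day 5 CD201+ cells were next compared with LSKCD201+ cells that had formed in the animal. Against FL-LSKCD201+ cells, 7 of the 9 genes passed the filter, and 34.7% of all genes tested passed the thresholds (15.1% higher and 19.6% lower). Of those that passed 43.5% were higher, and 50.2% after quantile normalization. Cyp26a1 (6.24 ± 0.07), Crabp1 (3.65 ± 0.15), Crabp2 (1.55 ± 0.24), Rarg (1.35 ± 0.11) and Rara (1.09 ± 0.08) were higher in D5-LSKCD201+ cells, and Dhrs3 was lower, with limma's adjusted p from 2.73e-08 to 0.000945. Rarb was at -0.32 ± 0.13 (adjusted p = 0.0618), with overlapping libraries, and the other 6 did not overlap, against 76.6% of all genes tested. Without replicate 1 of FL-LSKCD201+, the Crabp2 difference was 1.73. Against BM-LSKCD201+ cells, again 7 were tested, and 44.7% of all genes passed (17.5% higher and 27.2% lower). Of those that passed 39.1% were higher, and 49.0% after quantile normalization. Cyp26a1 (6.52 ± 0.17), Crabp1 (3.78 ± 0.15), Crabp2 (1.79 ± 0.19) and Rara (1.05 ± 0.07) were higher and Dhrs3 and Rarb lower, with adjusted p from 3.06e-08 to 6.94e-05. Rarg (0.81 ± 0.18, adjusted p = 0.00408) missed the fold threshold reached 1.17 after quantile normalization and was 0.61 without replicate 1 of BM-LSKCD201+. None of the 7 overlapped, against 85.3% of all genes tested. Crabp1 and Crabp2 in both comparisons, and Cyp26a1 against bone marrow, passed the filter through their D5-LSKCD201+ levels alone, and Rarb passed it through its levels in the animal's cells, so that these tests had to find a difference in that direction if any. Stra6 and Aldh1a2 were left out by the filter in both comparisons, with no library above 0.512 FPKM. These comparisons share the D5-LSKCD201+ libraries.

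FL-LSKCD201+ and BM-LSKCD201+ cells share their strain and their sort, and differ in organ and age. Of the 9 genes, 4 passed the filter here. Dhrs3 (-1.90 ± 0.12, limma, adjusted p = 2.08e-05) and Rarb were lower in the fetal liver cells, and 19.1% of all genes tested passed the thresholds (7.78% higher and 11.3% lower). Of those that passed 40.7% were higher, and 49.3% after quantile normalization. The Dhrs3 difference was -1.79 without replicate 1 of FL-LSKCD201+ and -1.96 without replicate 1 of BM-LSKCD201+, and that of Rarb was -1.17 and -1.03. Of the 4 genes 3 did not overlap between the groups, against 63.5% of all genes tested. Rarg was at -0.54 ± 0.19 (adjusted p = 0.0428), under the fold threshold, and Rara at -0.03 ± 0.11 (adjusted p = 0.808) with an interval from -0.28 to 0.22. The fetal liver libraries also held transcripts of hepatoblast markers, with Afp at 240 FPKM and Alb at 68.8 FPKM, against 7.30 and 0.0411 FPKM in BM-LSKCD201+ cells. Hnf4a of the same list went the other way, with 2.85 FPKM in fetal liver and 10.8 FPKM in bone marrow cells (-1.63 ± 0.14, limma, adjusted p = 9.05e-05). A sum over 7 endoderm and hepatoblast markers, 5 of which reached a mean of 1 FPKM, was 342 to 516 FPKM in the fetal liver libraries and 17.4 to 20.1 FPKM in bone marrow, and its part in these differences was not tested.

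A list of 35 other genes of the pathway placed the 9 genes in context. In D5-LSKCD201+ against D5-LSKCD201- cells 26 of the 35 were tested, 3 were higher and 6 lower, beside 10.8% and 13.9% of all genes. Among 8 tested target genes 2 rose and 3 fell. Of the list, 7 genes reached the filter in 1 of the groups alone, which fixes their direction, among them Cdx1, Stra8, Rxrg, Ttr and Adh1, so that these counts are descriptions. Tgm2, tissue transglutaminase, was 165 ± 6.31 FPKM in D5-LSKCD201+ and 5.38 ± 0.204 FPKM in D5-LSKCD201- cells, and Nr2f2, the orphan receptor of venous endothelium, was 8.19 ± 0.608 and 0.891 ± 0.276 FPKM. Stra8, which acts at the entry into meiosis, was 0.0132 ± 0.0228 and 7.10 ± 0.640 FPKM, and Cdx1, a homeobox gene of the posterior embryo, was 0.0799 ± 0.0132 and 5.47 ± 0.594 FPKM. Rarres1 was 1.98 ± 0.0996 and 6.05 ± 0.539 FPKM. Tgm2 and Nr2f2 were thus higher and Rarres1 lower with means above the filter in both groups. The direction of Stra8 and Cdx1 was fixed by the filter. The sum of the endothelial markers differed between these groups too.

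Among the genes of uptake and storage, Rbp4, the retinol carrier, was lower in D5-LSKCD201+ cells by -2.40 ± 0.12 (limma, adjusted p = 2.62e-06). The alcohol dehydrogenase gene Adh1, which acts on retinol, was higher by 1.88 ± 0.16 (limma, adjusted p = 3.84e-05). It reached the filter through its D5-LSKCD201+ level alone, which fixed this direction. The other 2 lower genes were Rxrg and Ttr, whose direction was fixed by the filter too. They lay at -0.80 and -0.73 after quantile normalization, under the fold threshold, and the 4 tested coregulators did not pass. Ttr also lost its call without replicate 1 of D5-LSKCD201- (-0.97) and with close pairs averaged. The sum of the 7 endoderm markers, to which Ttr belongs, was 1.39 to 1.67 FPKM in D5-LSKCD201+ and 20.7 to 30.8 FPKM in D5-LSKCD201- cells, and its part in these differences was not tested. Against mESCs, 8 of 23 tested genes of the list were higher and 7 lower in D5-LSKCD201+ cells, beside 19.5% and 18.1% of all genes. In D5-LSKCD201- cells 9 of 25 were higher and 3 lower, beside 10.9% and 3.48% of all genes. In D5-LSKCD201+ cells 4 of the 8 higher and 3 of the 7 lower genes reached the filter in 1 of the groups alone, and in D5-LSKCD201- cells 3 of the 9 higher genes did. In D5-LSKCD201+ cells the largest rises on the log2(FPKM + 1) scale were those of Tgm2 (5.84 ± 0.06), Rarres2 (3.48 ± 0.11), which encodes chemerin, Nr2f2 (3.08 ± 0.09) and Fabp5 (2.61 ± 0.08), which encodes a fatty acid binding protein that also binds retinoic acid. With a pseudocount of 0.1, Rarres2 (6.38) was level with Tgm2 (6.37), and Adh1 (4.95) and Rarres1 (3.18) lay above Fabp5 (2.65). The largest falls on that scale were those of Stra8 (-2.79 ± 0.11), Rxrg (-1.64 ± 0.08), the corepressor gene Ncor1 (-1.57 ± 0.15) and the coactivator gene Ncoa3 (-1.54 ± 0.06). With a pseudocount of 0.1, Cdx1 (-3.36) lay beyond Ncor1 (-1.61) and Ncoa3 (-1.64).

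On the log2(FPKM + 1) scale the largest rises in D5-LSKCD201- cells against mESCs were those of Rarres2 (3.22 ± 0.10), Rbp4 (3.13 ± 0.17), Rarres1 (2.62 ± 0.11) and Fabp5 (2.16 ± 0.08). With a pseudocount of 0.1, Rarres1 (4.74) and Ttr (3.85) lay above Rbp4 (3.82), and Rdh10 (2.22) above Fabp5 (2.2). The sum of the 7 endoderm markers was 0.418 to 0.788 FPKM in mESCs and 20.7 to 30.8 FPKM in D5-LSKCD201- cells. Its part in these rises was not tested. The genes that fell were Rbp7 (-1.29 ± 0.21), Rxrb (-1.28 ± 0.33) and Ncoa3 (-1.02 ± 0.17). Without replicate 2 of D5-LSKCD201-, Rxrb was at -0.85 and Ncoa3 at -0.81, under the fold threshold, and Rxrb also lost its call without replicate 1 of mESC (adjusted p = 0.0549) and with no filter (adjusted p = 0.0827). Of 7 tested target genes 4 passed in this comparison, all higher, beside 10.9% of all genes. Of these, Rarres1 and Rarres2 reached the filter through their D5-LSKCD201- levels alone, and Tgm2 (0.91) and Cdx1 (adjusted p = 0.000249) fell under the fold threshold after quantile normalization.

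In D5-LSKCD201+ against FL-LSKCD201+ cells 5 of 21 tested genes of the list were higher and 6 lower, beside 15.1% and 19.6% of all genes. Against BM-LSKCD201+ cells 8 of 23 were higher and 6 lower, beside 17.5% and 27.2% of all genes. Of those called, 3 higher and 1 lower against fetal liver, and 6 higher and 2 lower against bone marrow, reached the filter in 1 of the groups alone. Rxrb, a partner of the retinoic acid receptors, was 8.87 ± 0.465 FPKM in D5-LSKCD201+, 48.9 ± 7.17 in FL-LSKCD201+ and 75.5 ± 4.51 in BM-LSKCD201+ cells, and it was 1 of 2 tested partner receptors, the other being Rxra (-0.79 ± 0.08 and -0.88 ± 0.09, under the fold threshold). Of the coregulators, 3 of 4 tested were lower than in fetal liver and 4 of 5 lower than in bone marrow, with none higher, where 19.6% and 27.2% of all genes were lower. Of the 4, Ncoa1 reached the filter through its bone marrow level alone, and Ncoa2 (-0.95) fell under the fold threshold after quantile normalization. Among them, Ncor1 was 21.6 ± 4.87, 82.1 ± 19.6 and 120 ± 9.79 FPKM in the 3 groups and Nrip1, a corepressor gene, 5.39 ± 0.538, 22.0 ± 0.530 and 28.1 ± 1.64 FPKM. Tgm2, Rarres2, Nr2f2 and Adh1 were higher in the day 5 cells than in fetal liver. On the log2(FPKM + 1) scale the first 3 of these, with Fabp5 (2.18 ± 0.06), showed the 4 largest positive differences against bone marrow, where Nr2f2 was listed at 0. With a pseudocount of 0.1, Rbp4 (4.83), Rbp7 (3.88), Rarres1 (3.87) and Adh1 (3.15) lay above Tgm2 (2.49) and Fabp5 (2.21). The sum of the 7 endothelial markers was 1470 to 1490 FPKM in D5-LSKCD201+, 137 to 169 FPKM in FL-LSKCD201+ and 107 to 117 FPKM in BM-LSKCD201+ cells, and that of 10 stromal markers was 109 to 112, 12.3 to 15.1 and 7.25 to 7.79 FPKM. Their part in the differences of the day 5 cells from fetal liver and bone marrow was not tested.

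The largest differences against fetal liver in the other direction, on the log2(FPKM + 1) scale, were those of the plasma proteins Ttr (-4.35 ± 0.24) and Rbp4 (-3.98 ± 0.27), of Rxrb (-2.33 ± 0.11) and of Ncor1 (-1.88 ± 0.23). Ttr is also a marker of the endoderm and hepatoblast sum above. Against bone marrow they were those of Rxrb (-2.95 ± 0.07), Ncor1 (-2.45 ± 0.16) and Nrip1 (-2.19 ± 0.08), and Aldh1a1, another retinaldehyde dehydrogenase gene, was 3.99 ± 0.319 FPKM in BM-LSKCD201+ cells and listed at 0 in all 3 D5-LSKCD201+ libraries. With a pseudocount of 0.1, Ncoa1 (-4.12) lay beyond Rxrb (-3.07) against bone marrow, and Nrip1 (-2.01) beyond Ncor1 (-1.92) against fetal liver. Between fetal liver and bone marrow 3 of 18 tested genes were higher and 2 lower in fetal liver, beside 7.78% and 11.3% of all genes, and 2 of the higher and 1 of the lower genes reached the filter in 1 of the groups alone. Ttr (4.50 ± 0.24) and Fabp5 (2.44 ± 0.22) were higher, Rbp4 was 60.8 ± 20.9 FPKM in fetal liver and listed at 0 in all of bone marrow, and Aldh1a1 (-2.14 ± 0.16) and Ncoa1 (-1.45 ± 0.15) were lower.

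**Figure D4:**
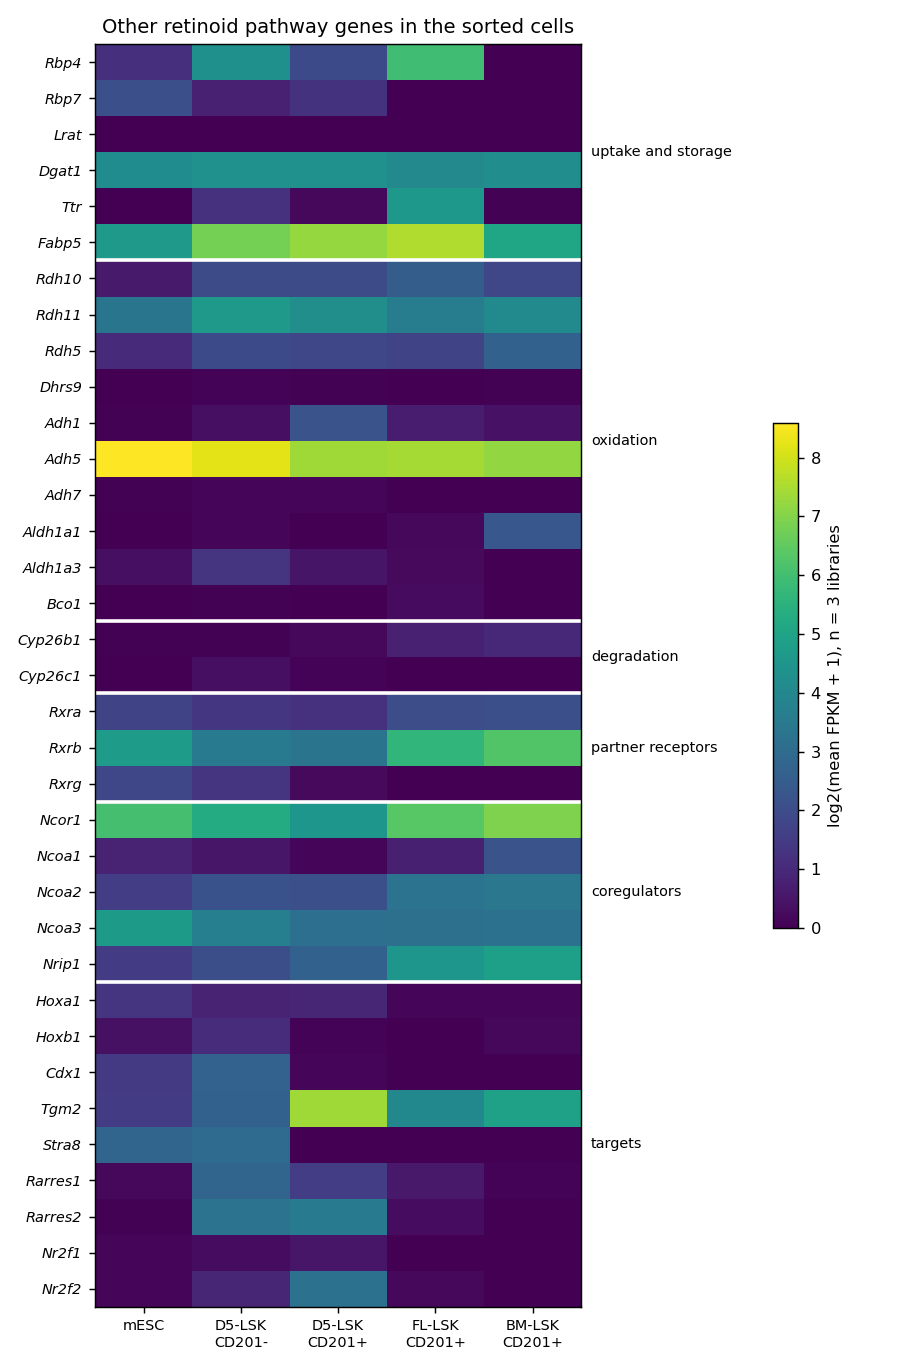
Colour gives log2(mean FPKM + 1) over 3 libraries for the 35 other genes of the pathway (vertical axis, grouped by role) in the 5 sorted groups (horizontal axis). Tgm2 is brightest in D5-LSKCD201+ cells (165 FPKM), Rbp4 and Ttr are brightest in FL-LSKCD201+ cells, and Rxrb and Ncor1 are brightest in BM-LSKCD201+ cells.

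The paralogues of the synthesis and degradation genes were named after their values had been seen. Cyp26b1 was 0.141 ± 0.0606 FPKM in D5-LSKCD201+, 0.0288 ± 0.0242 in D5-LSKCD201-, 0.729 ± 0.0144 in FL-LSKCD201+ and 0.966 ± 0.437 in BM-LSKCD201+ cells. Cyp26c1 was 0.276 ± 0.226 FPKM in D5-LSKCD201- cells and listed at 0 in all mESC, fetal liver and bone marrow libraries. Of the 3 degradation genes, Cyp26a1 was therefore the most abundant per length in mESCs and in both day 5 fractions, while Cyp26b1 had the highest mean in FL-LSKCD201+ and BM-LSKCD201+ cells. In bone marrow the values overlapped, with 0.467 to 1.28 FPKM for Cyp26b1 and 0 to 0.629 FPKM for Cyp26a1. Aldh1a3 was 1.45 ± 0.435 FPKM in D5-LSKCD201- cells, below Aldh1a2 at 2.31 ± 0.130, and the mean of Aldh1a1 was above that of Aldh1a2 only in fetal liver and bone marrow cells. In fetal liver these means were 0.143 ± 0.229 and 0.0283 ± 0.0489 FPKM, with overlapping values. In D5-LSKCD201+ cells Aldh1a2 and Aldh1a3 were at 0.182 ± 0.0897 and 0.407 ± 0.115 FPKM.

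Total cells grown to day 5 on OP9 were compared with those grown on gelatin alone, which asks what the stromal layer changes. Dhrs3 was the only one of the 9 genes past both thresholds, and it was lower on OP9. It was 2.02, 1.82 and 4.54 FPKM in 3D+OP9 and 12.2, 10.1 and 8.19 FPKM in 3D+0.1% gelatin. All 3D+OP9 libraries lay below all gelatin libraries, with replicate 3 of 3D+OP9 the highest of its group. The difference was -1.61 ± 0.27 (limma, adjusted p = 0.0145), and the gelatin mean was 3.64 times the 3D+OP9 mean. The adjusted p lay between 0.0521 and 0.0779 without replicate 1 or 2 of either group, and it was 0.0596 with no filter on low values and 0.0525 with close pairs averaged, so that the call was lost in each of these. Without replicate 3 of 3D+OP9 the difference was -1.92 (adjusted p = 0.000915). Of all 12958 genes tested, 2.62% passed the thresholds (2.11% higher and 0.509% lower), and the median difference was 0.15 over the 9 genes and 0.01 over all genes.

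Aldh1a2 was 12, 9.76 and 1.66 FPKM in 3D+OP9 and 3.08, 1.09 and 1.64 FPKM in 3D+0.1% gelatin. Replicates 1 and 2 of 3D+OP9 lay above the gelatin libraries, and replicate 3 lay among them. The difference was 1.35 ± 0.58 (limma, adjusted p = 0.218), and without replicate 3 of 3D+OP9 it was 2.06 (adjusted p = 0.0036). The same replicate stood apart for other genes of the pathway. Cyp26a1 was 44.1, 45.2 and 18.9 FPKM on OP9 against 33.3, 25.4 and 32.8 FPKM on gelatin, and Rarg was 20.1, 21.8 and 45.8 FPKM against 30.9, 29.9 and 35.7 FPKM. Replicate 3 was the lowest of these 6 libraries for Cyp26a1 and the highest for Rarg. Without it the differences were 0.55 for Cyp26a1 (limma, adjusted p = 0.0276), -0.59 for Rarg (adjusted p = 0.00958) and 0.98 for Crabp1 (adjusted p = 0.0301), all under the fold threshold. The sum of the pluripotency markers was 1360 FPKM in replicate 3 of 3D+OP9, 791 and 785 FPKM in the others and 1170 to 1260 FPKM on gelatin. The sum of the 7 endoderm markers was 2.56 FPKM in replicate 3 of 3D+OP9 and 9.62 and 10.2 FPKM in the others, and that of 7 neuroectoderm markers 38.9 FPKM against 67.5 and 66.9 FPKM. The part of these cell types in the values of that replicate was not tested. The members of the pluripotency list did not move together: Esrrb (33.1 against 2.08 FPKM, 3.42 ± 0.21) and Zfp42 (40.1 against 5.50 FPKM, 2.67 ± 0.26) were higher on OP9, while Pou5f1 (-0.71 ± 0.16) and Nanog (-0.98 ± 0.18) lay lower without reaching the fold threshold.

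Crabp1 was 33.3, 35.7 and 19.0 FPKM on OP9 and 16.1, 24.1 and 12.7 FPKM on gelatin, a difference of 0.70 ± 0.28 (limma, adjusted p = 0.197) with overlapping libraries. Stra6 was 0.640, 0.900 and 1.12 FPKM on OP9 and 0.330, 0.320 and 0.540 FPKM on gelatin, and Rarb was 0.810, 0.670 and 0.670 FPKM against 0.530, 0.400 and 0.300 FPKM. Neither overlapped between the groups, and neither passed (0.43 ± 0.14 with adjusted p = 0.127 and 0.29 ± 0.12 with adjusted p = 0.211). In all, 4 of the 9 genes did not overlap, against 28.7% of all genes tested. Of the 4, Stra6 and Rarb reached the filter through their 3D+OP9 levels alone. The means of Rara were 23.0 ± 0.150 FPKM on OP9 and 25.7 ± 3.06 FPKM on gelatin, and those of Crabp2 were 22.3 ± 0.983 and 23.7 ± 0.266 FPKM. The 95% interval of the difference ran from -0.38 to 0.08 for Rara and from -0.26 to 0.09 for Crabp2.

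**Figure D5:**
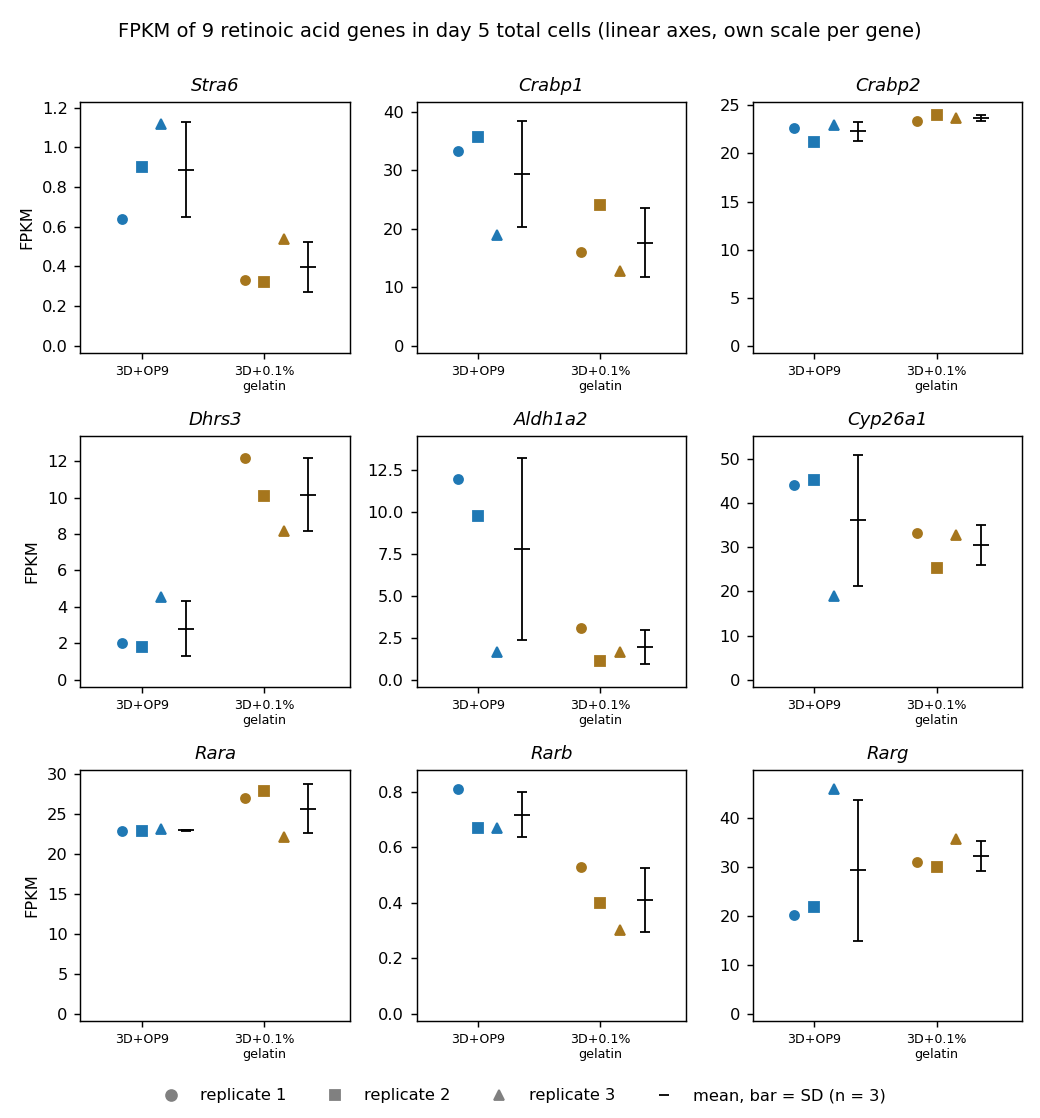
FPKM of the 9 genes (vertical axis, linear, with its own scale per gene) in the 6 libraries of day 5 total cells, 3D+OP9 and 3D+0.1% gelatin (horizontal axis). Points are libraries with a symbol per replicate, and the dash with its bar is the mean with SD (n = 3). Dhrs3 was below 5 FPKM in all 3D+OP9 libraries and above 8 FPKM on gelatin, and replicate 3 of 3D+OP9 lies away from the other 2 for Aldh1a2, Cyp26a1 and Rarg.

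Of the 35 other pathway genes 25 were tested in the coculture cells, and 2 passed, both higher on OP9, beside 2.62% of all genes. The count was 1 with no filter, with a filter at 1 FPKM, after quantile normalization, with close pairs averaged, and without any 1 library other than replicate 3 of 3D+OP9. Rarres2 reached the filter through its 3D+OP9 level alone, and Tgm2 kept its call in every setting run. Tgm2 was 7.20 ± 1.66 FPKM on OP9 and 1.89 ± 0.428 FPKM on gelatin (1.49 ± 0.19, limma, adjusted p = 0.00519), and Rarres2 was 1.94 ± 1.25 FPKM on OP9 and listed at 0 in all gelatin libraries (adjusted p = 0.0402). A sum over 10 stromal markers was 73.8 to 90.5 FPKM in 3D+OP9 and 43.8 to 54.3 FPKM on gelatin, with 8 and 6 of the 10 markers at a mean of 1 FPKM or more and none at 0 in all libraries of a group. The sum over the 7 endothelial markers was 76.6 to 91.6 and 9.52 to 20.4 FPKM. The part of OP9 or endothelial RNA in these differences was not tested.

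The genes with the most similar pattern to each of the 9 were read from Pearson's r of log2(FPKM + 1) over the 15 sorted-cell libraries, among 12924 genes. These r describe 5 groups more than 15 independent points. Cyp26a1 was closest to Prss12 (r = 0.994), Emp2 (0.993) and Tpm1 (0.992), Stra6 to Rtn4rl1 (0.987), T, which encodes the mesoderm factor brachyury (0.972), and Vstm2b (0.972), and Aldh1a2 to Elf3 (0.995), Prdm1 (0.995) and Syndig1 (0.994). Crabp1 was closest to Ctgf (0.997), Gm7993 (0.994) and Fn3krp (0.994), and Crabp2 to Bpnt1 (0.992), Mfap4 (0.987) and Hdac6 (0.985). Dhrs3 was closest to Apobr (0.994), 1810026B05Rik (0.992) and Armc3 (0.992). Among the receptors, Rara was closest to Uso1 (0.975), 2610507B11Rik (0.944) and Rab1a (0.942), Rarb to Dusp10 (0.974), Pigv (0.966) and Rab20 (0.963), and Rarg to Pianp (0.985), Ankrd13c (0.971) and Fgd1 (0.967).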

How the data were processed

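FPKM per gene and library were deposited by the authors in separate tables for coculture and sorted cells, made with HISAT2 2.0.5 on GRCm38 and StringTie 1.3.3. The submitters' processing notes also name mm9 and Cuffdiff 1.3.0. No test crossed the tables. FPKM summed to between 483263 and 508307 per coculture library and between 508622 and 620332 per sorted-cell library, and depth is unknown. Genes whose mean reached 0.5 FPKM in the libraries compared were tested on log2(FPKM + 1), which understates the fold change of low genes, with limma 3.58.1 (trend, two-sided) in R 4.3.3 and Benjamini-Hochberg adjustment over all genes tested. An exact permutation test of 3 against 3 libraries cannot give a p under 0.1. The settings varied were the pseudocount (0.1), the filter (none or 1 FPKM), quantile normalization, no trend, the replicate block, a fit over all 5 sorted groups, leaving out each library and, chosen after seeing the data, averaging close pairs. Deviations of same-numbered libraries correlated above 0.1 in every pair only for fetal liver against bone marrow (0.242, 0.202 and 0.159), a pairing from the data alone. On simulated data, with 200 genes changed by a log2 of 2, 98.5% were recovered for D5-LSKCD201+ against D5-LSKCD201- cells and 97.5% for 3D+OP9 against gelatin. The changed genes were drawn from those with a mean log2(FPKM + 1) above 2, so these shares do not cover lower genes or smaller changes.

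Gene positions are those of GENCODE M21 on GRCm38, which held 99.5% of the sorted-cell identifiers, and promoter sequences are those of RefSeq. The genes and lists were chosen with earlier results of these data known. Further genes of the pathway list are not reported here and were left out of its counts. The rule named all 9 genes, up to 4 genes of the pathway list per direction and comparison, and the 3 most similar genes. Python 3.11.15 with matplotlib 3.10.9 drew the figures.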

Additional observations from a re-analysis of the deposited data

How the results depend on the processing

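The number of the 9 genes past the thresholds stayed within 1.5 times that reported in most alternatives. Exceptions were 3D+OP9 against gelatin, where 1 gene passed, 0 with no filter on low values or with close pairs averaged, and 0 to 2 when a library was left out; D5-LSKCD201+ against mESCs, where 3 passed and 5 with a pseudocount of 0.1; and fetal liver against bone marrow, where 2 passed, 1 after quantile normalization and 1 to 2 when a library was left out. Of the 35 other genes, 2 passed on OP9 and 1 with no filter, a filter at 1 FPKM, quantile normalization or close pairs averaged, and 1 to 2 when a library was left out. Signs that turned belonged to differences that were near 0 and not called in the main fit. Without 1 library, Cyp26a1 on OP9 and Rarg in D5-LSKCD201+ against D5-LSKCD201- cells had a limma adjusted p under 0.05, as given above. Cyp26a1 on OP9 was -0.04 and -0.06 without replicate 1 or 2 of 3D+OP9 -0.05 with close pairs averaged, and up to 0.55 without replicate 3. Rarg in D5-LSKCD201+ against D5-LSKCD201- cells was 0.01, 0.28 and 0.29 without replicate 1 of D5-LSKCD201+ and 1 or 3 of D5-LSKCD201-, 0.28 with close pairs averaged, and down to -0.74 without replicate 2 of D5-LSKCD201-. Dhrs3 in D5-LSKCD201+ cells against mESCs was -0.13 after quantile normalization and between -0.05 and 0.09 without single libraries, at or below 0 in 4 of these (-0.05, -0.03, -0.02 and 0). Crabp1 in D5-LSKCD201- cells against mESCs was 0.05 without replicate 2 of D5-LSKCD201- and down to -0.21 without others, and Rara in fetal liver against bone marrow was 0.15 after quantile normalization and 0.02 and 0.01 without replicate 3 of FL-LSKCD201+ or 2 of BM-LSKCD201+, and down to -0.07 without others. With the replicate number as a block, the counts of the 9 genes past the thresholds were 1, 5, 3, 5, 6, 6 and 2 in the 7 comparisons, equal to those without it. In fetal liver against bone marrow the block changed no call among these genes or the called genes of the list. Over all genes, 2607 passed there with the block and 2581 without it. Quantile normalization moved the median over all genes from -0.12 to -0.01 in D5-LSKCD201+ against D5-LSKCD201-, from 0.05 to -0.10 in D5-LSKCD201- against mESCs, from -0.16 to -0.05 in D5-LSKCD201+ against fetal liver, from -0.23 to -0.02 in D5-LSKCD201+ against bone marrow, and from -0.13 to -0.02 in fetal liver against bone marrow. Over all genes, 531 passed on OP9 with a pseudocount of 0.1 against 339 with 1. This count was 209 without replicate 2 of 3D+0.1% gelatin and 444 without replicate 3 of 3D+OP9. Of these, 37 and 127 were lower, against 66 with all libraries. Genes under about 1 FPKM are limited by the unknown depth, and the cause of each loss was not tested.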
